A study of Mus musculus with 24 samples.

Results

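The genes described here encode the mucus and cell-surface mucins of the airway, a trefoil peptide and mesothelin: Muc5b, Muc5ac, Muc1, Muc16, Muc20, Tff2 and Msln. They were chosen by name. The list has 8 genes, and 7 of them were measured among the 35855 genes of the libraries; Muc4 was not analysed here. RNA was measured in 24 bulk libraries, each made from 1000 sorted airway epithelial cells of the trachea. The mice were naive wild-type females, C57BL/6 by the series title. The labels give 3 groups of 8 libraries, BCAM HI, BCAM LO and DIFFERENTIATED EPCS, called BCAM high, BCAM low and differentiated below. BCAM is a laminin-binding surface protein, and the series title calls the cells sorted by it basal cells, the progenitors of the airway epithelium. No genotype, drug or exposure differs between the groups. Replicates 1 to 5 of each group are labelled batch 1 and replicates 6 to 8 batch 2, and no source used here says what the batch stands for. Nothing says that replicates came from separate animals, so p-values measure only the spread between these samples, which may be technical.

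Mucins are large proteins with stretches of serine and threonine that carry dense O-linked sugars. The gel-forming mucins Muc5b and Muc5ac are packed into secretory granules of club, goblet and gland cells, swell on release and form the mucus that cilia carry away. Muc1, Muc16 and Muc20 stay in the apical membrane, where they form a barrier next to the cell and can signal through short cytoplasmic tails. Trefoil peptides such as Tff2 are small, knot-like secreted proteins that accompany mucins, and mesothelin (Msln) is a lipid-anchored surface protein known as a binding partner of Muc16 in human cells.

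The genes lie on 5 chromosomes (coordinates of build GRCm38, GENCODE M21). Muc5ac (chr7:141788972-141819231) and Muc5b (chr7:141839070-141873084) are neighbours on the plus strand, 19.84 kb apart. Muc1 (chr3:89229057-89233381) lies on the plus strand, and Muc16 (chr9:18495455-18674530), Muc20 (chr16:32777419-32797435), Msln (chr17:25748613-25754378) and Tff2 (chr17:31141049-31144282) on the minus strand. Muc20 shares 627 of its 4027 exonic bases with Muc4 on the opposite strand. No source used here gives a strand setting, so reads from those bases cannot be assigned to either gene with certainty and the Muc20 values are uncertain to that extent.

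Upstream sequences were in the RefSeq table (build GRCm38.p6) for 3 of the 7 measured genes, Muc1, Muc16 and Muc20. They are printed because only these 3 had a sequence available. The direction of their group differences was shared by all 7 measured genes. Each run is the 250 bases before the transcription start, 5′ to 3′ on the gene's own strand, and capitals mark matches to the motifs searched on both strands: the TATA box (TATAAA), the GC box (GGGCGG), the forkhead motifs (TGTTTAC and also TGTTTGC), a STAT motif (TTCNNNGAA) and an ETS motif (CAGGAAG).
Muc1, chr3:89228806-89229055, plus strand: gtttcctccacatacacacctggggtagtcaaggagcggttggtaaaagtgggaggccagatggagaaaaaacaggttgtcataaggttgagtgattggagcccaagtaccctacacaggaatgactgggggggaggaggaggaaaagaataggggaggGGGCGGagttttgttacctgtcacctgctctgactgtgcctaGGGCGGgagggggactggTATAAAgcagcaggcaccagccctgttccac
Muc16, chr9:18674604-18674853, minus strand: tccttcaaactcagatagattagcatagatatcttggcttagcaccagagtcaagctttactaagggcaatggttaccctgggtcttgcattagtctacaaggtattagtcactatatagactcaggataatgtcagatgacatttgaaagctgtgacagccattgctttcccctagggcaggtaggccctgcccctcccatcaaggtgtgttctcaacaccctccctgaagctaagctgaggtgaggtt
Muc20, chr16:32797436-32797685, minus strand: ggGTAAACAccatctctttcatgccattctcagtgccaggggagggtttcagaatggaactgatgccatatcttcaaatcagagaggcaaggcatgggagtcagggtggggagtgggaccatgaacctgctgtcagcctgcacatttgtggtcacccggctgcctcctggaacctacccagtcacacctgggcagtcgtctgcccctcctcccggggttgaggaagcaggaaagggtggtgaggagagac
In the Muc1 run, TATAAA begins 31 bases before the start and GGGCGG begins 91 and 49 bases before it. The Muc20 run holds 1 forkhead match, read on the reverse strand as GTAAACA, 248 bases before the start. None of the 5 motifs was found in the Muc16 run, which says only that these letters are not in this window. Of 32851 promoters of the same length, 12.4% hold TATAAA, 32.7% GGGCGG, 7.29% the forkhead letters, 7.02% the STAT letters and 10.8% the ETS letters.

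Estimated counts totalled 1824619 to 4440072 per library. Values for 1 gene are given as CPM, counts relative to the TMM-scaled total of the library. Levels of different genes are set side by side as TPM, which takes transcript length into account. Counts are added where short transcripts weigh on the TPM. The labelled cell types were checked against marker lists. The 8 basal markers summed to 5436 to 8333 CPM in the BCAM groups and to 338.3 to 2627 CPM in differentiated libraries. Krt5, a basal keratin, was at 1672 ± 294.8 CPM (BCAM high), 928.7 ± 136.7 (BCAM low) and 0.8536 ± 1.224 (differentiated; SD, n = 8). In the differentiated group, replicates 6 and 7 stood apart. Their 8 club cell markers summed to 18260 and 12630 CPM, against 80870 in replicate 8 and 284700 to 415600 in batch 1. Their 8 thyroid markers summed to 83240 and 117000 CPM, against 49520 in replicate 8 and 13810 to 25960 in batch 1. Replicate 8 thus lay between them and batch 1 in both sums. In the BCAM groups the thyroid sum did not exceed 1291 CPM. The 4 parathyroid markers summed to 332.4 to 29220 CPM in batch 1 of differentiated and to 15.64 to 416.3 CPM in its batch 2. In the BCAM groups this parathyroid sum did not exceed 15.15 CPM, except in BCAM low 7, at 458.2 CPM. Values without differentiated 6 and 7 are given for Muc1, for the number of the 7 genes called and for batch and interaction tests. Other results are not given without both.

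By mean CPM, all 7 genes were lowest in BCAM high and highest in differentiated. By mean TPM the same order held except for Muc5ac, at 4.02 in BCAM low and 3.17 in differentiated. Fitted differences come from edgeR's quasi-likelihood test (edgeR QL) over all 24 libraries with batch as a covariate, and a gene is called at a Benjamini-Hochberg adjusted p under 0.05 over the 12211 genes tested. All 7 measured genes passed the filter on low counts. Between BCAM high and BCAM low, 3 of the 7 were called, all lower in BCAM high. Of all tested genes, 4.59% were called lower and 7.02% either way. The fit does not pair libraries by number, and a block for the replicate number removed the calls of Muc5b and Msln between the BCAM groups. Between BCAM high and differentiated, 7 of 7 were called lower, against 22% of tested genes called lower and 41.3% either way. BCAM low was lower than differentiated for 6 of 7, against 17.1% called lower and 33.5% either way. The comparisons with differentiated share those 8 libraries and are therefore given side by side. The median fitted log2 fold change over the genes was -1.89, -4.07 and -1.98 in the order above, and over all tested genes 8.8e-05, 0.02 and 0.02. Without differentiated 6 and 7, a setting chosen after seeing the data, 6, 7 and 7 of the 7 genes were called. The shares of all tested genes called in that setting are not given, so these counts only describe the 7 genes. On the TPM scale (limma on log2(TPM + 0.1)) the median of all genes moved by 0.26, 0.73 and 0.46, and the share of calls that were higher in the first group went from 34.7%, 46.8% and 48.8% to 75.9%, 88.5% and 87.4%. In bulk samples, fewer cells of a type and less RNA per cell cannot be told apart.

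**Figure D1:**
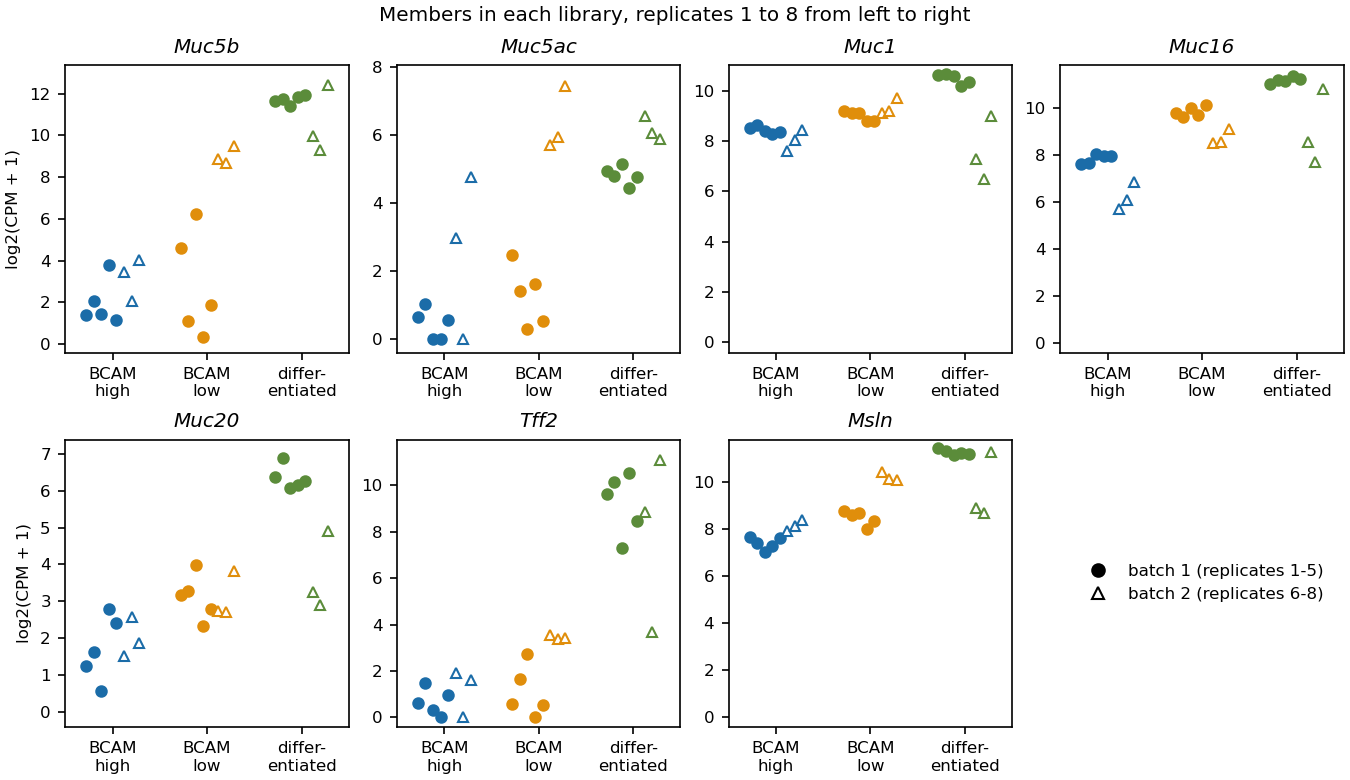
Level of each gene in each library, as log2(CPM + 1) on the vertical axis, by group, with replicates 1 to 8 from left to right; filled circles are batch 1 and open triangles batch 2. Muc5b ran from 0.255 CPM in BCAM low 4 to 5382 in differentiated 8, and the batch 2 triangles of BCAM low lie far above its batch 1 circles for Muc5b and Muc5ac.

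Muc5b, the mucin that makes up most of the resting airway's mucus, was nearly undetected in BCAM high and among the abundant transcripts of the differentiated libraries. In BCAM high its lowest, median and highest library had 1.20, 3.17 and 15.4 CPM. BCAM low ran from 0.255 through a median of 48.9 to 725 CPM, and differentiated from 625 through 3345 to 5382 CPM. The 3 batch 2 libraries of BCAM low, at 468, 412 and 725 CPM, were high, whereas its batch 1 libraries lay between 0.255 and 74.3 CPM. Of these 5, replicates 2, 4 and 5 lay within or below the range of BCAM high, and replicates 1 and 3, at 23.5 and 74.3 CPM, above it. BCAM high did not overlap differentiated, as held for 7.3% of tested genes on the lower side, and BCAM low overlapped it through replicate 8. The fitted log2 fold change was -4.21 (SE 1.11) between BCAM high and BCAM low (edgeR QL, adjusted p = 0.0238), lower in 6 of 8 same-numbered comparisons. Against differentiated it was -9.54 (SE 1.27, edgeR QL adjusted p = 3.13e-06) in BCAM high and -5.33 (SE 1.15, edgeR QL adjusted p = 0.00115) in BCAM low. The call between the BCAM groups was lost on leaving out BCAM high 6, 7 or 8 or BCAM low 3, with log2 fold changes of -4.09, -3.93, -4.26 and -4.06 (edgeR QL adjusted p up to 0.0689). It was also not kept with no filter (-4.17, edgeR QL adjusted p = 0.053) or on log2(TPM + 0.1) (-2.55, limma adjusted p = 0.0819) or log2(TPM + 1) (-1.94, limma adjusted p = 0.0506). A block for the replicate number also removed the call between the BCAM groups.

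Muc5ac, the inducible gel-forming mucin of goblet cells, averaged 3.17 ± 2.08 TPM in differentiated libraries (SD, n = 8), the lowest of the 7 genes there per length, although Muc20 was lower in differentiated 6 and 7. BCAM high had a lowest, median and highest value of 0, 0.515 and 26.1 CPM. In BCAM low these were 0.229, 3.29 and 174 CPM, and in differentiated 20.6, 31.8 and 92.6 CPM. Replicates 3, 4 and 7 of BCAM high had 0 counts, which allows up to 0.734, 0.881 and 1.06 CPM (3 counts; such limits cover counting error only, because these amplified reads carry no molecular identifiers). The BCAM low libraries of batch 2, at 51.2 to 174 CPM, lay within or above the range of the differentiated ones, and those of batch 1 did not exceed 4.55 CPM. Muc5ac was lower in BCAM high than in differentiated (log2 fold change -4.56, SE 0.83, edgeR QL adjusted p = 0.000124). It was not called between the BCAM groups (-2.58, SE 0.79, edgeR QL adjusted p = 0.0528), although it passed on leaving out BCAM high 8 (-3.76) or any of BCAM low 2, 3, 5 and differentiated 7. The call between BCAM low and differentiated (-1.98, SE 0.73, edgeR QL adjusted p = 0.0397) was not kept without any 1 of 12 libraries, namely BCAM low 1 to 7 and differentiated 1 to 5 (-2.01 to -1.70, edgeR QL adjusted p up to 0.08).

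Tff2, the trefoil peptide of mucous and gland cells, was nearly undetected in the BCAM groups. BCAM high reached at most 2.82 CPM, with a median of 0.755, and BCAM low 10.6 CPM, with a median of 3.92. With 0 counts, BCAM high 4 and 7 and BCAM low 4 allow up to 0.881, 1.06 and 0.765 CPM. Differentiated libraries ran from 11.9 through a median of 623.5 to 2173 CPM. Neither BCAM group overlapped differentiated (for BCAM low, 3.83% of tested genes lay below differentiated in this way), though BCAM low 6, at 10.6 CPM, lay just under differentiated 7, at 11.9. The log2 fold changes against differentiated were -9.63 in BCAM high (SE 1.01, edgeR QL adjusted p = 1.26e-07) and -7.75 in BCAM low (SE 0.90, edgeR QL adjusted p = 9.21e-07). Between the BCAM groups, which held 30 and 103 summed counts, the value was -1.89 (SE 1.12) and was not called (edgeR QL adjusted p = 0.367).

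Muc16, a giant membrane mucin whose shed form is the tumour antigen CA125, separated the BCAM groups without overlap. Its lowest, median and highest library had 50.8, 199.3 and 267.5 CPM (BCAM high), 362, 814 and 1129 CPM (BCAM low) and 209.9, 2200 and 2663 CPM (differentiated). Every BCAM high library lay below every BCAM low library, a pattern held by 0.999% of tested genes. Only differentiated 6 and 7, at 378 and 209.9 CPM, fell into the range of a BCAM group. The difference between BCAM high and BCAM low was -2.18 on the log2 scale (SE 0.30, edgeR QL adjusted p = 9.08e-05), lower in 8 of 8 same-numbered comparisons. Leaving out 1 library at a time gave -2.28 to -2.09 and kept the call in all 24 fits. Against differentiated the values were -3.35 in BCAM high (SE 0.31, edgeR QL adjusted p = 1.27e-08) and -1.17 in BCAM low (SE 0.29, edgeR QL adjusted p = 0.00322), and the latter was not called with limma on log2(TPM + 0.1) (-0.20).

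Muc1, the widely expressed membrane mucin, was detected in every library. BCAM high ran from 194.8 through a median of 329.8 to 398.8 CPM, BCAM low from 444 through 554 to 836, and differentiated from 88.3 through 1226 to 1627. BCAM high and BCAM low did not overlap, yet the fitted difference of -0.92 (SE 0.39) was not called (edgeR QL adjusted p = 0.17). In differentiated, the 5 batch 1 libraries were all above 1100 CPM, while replicates 6 and 7, at 154 and 88.3 CPM, were the lowest of all 24. Muc1 was lower in BCAM high than in differentiated (-1.47, SE 0.40, edgeR QL adjusted p = 0.0055) and was not called between BCAM low and differentiated (-0.55, SE 0.41, edgeR QL adjusted p = 0.321). Without differentiated 6 and 7 these 3 values were -0.86, -1.95 and -1.09, and all were called (edgeR QL adjusted p = 0.00408, 5.5e-08 and 2.72e-04). On the log2(TPM + 0.1) scale the value between BCAM low and differentiated turned to 0.27, and that between BCAM high and differentiated (-0.39) was not called.

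Muc20, a small membrane mucin reported to dampen signalling of the receptor Met, was sparse in the BCAM groups. BCAM high held 0.490 to 5.88 CPM with a median of 2.39, and BCAM low 4.08 to 14.9 with a median of 7.03. Differentiated libraries held 6.40 to 117 CPM with a median of 68.0, and replicates 6 and 7, at 8.47 and 6.40 CPM, lay within the range of BCAM low. BCAM high did not overlap differentiated. Muc20 was lower than in differentiated in BCAM high (-4.07, SE 0.51, edgeR QL adjusted p = 6.67e-07) and in BCAM low (-2.59, SE 0.46, edgeR QL adjusted p = 0.000123). Between the BCAM groups it was -1.48 (SE 0.52) and not called (edgeR QL adjusted p = 0.0904), and it passed on leaving out differentiated 7 (edgeR QL adjusted p = 0.0487).

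Msln, named for the mesothelium where it was found, was abundant in every group. The lowest, median and highest values were 131.4, 199.8 and 333 CPM (BCAM high), 259, 425 and 1371 CPM (BCAM low) and 410, 2394 and 2813 CPM (differentiated). BCAM high overlapped BCAM low but not differentiated. Within BCAM low the batch 2 libraries, at 1371, 1119 and 1082 CPM, were all higher than the 259 to 437 CPM of batch 1. The fitted values were -1.56 between the BCAM groups (SE 0.41, 8 of 8, edgeR QL adjusted p = 0.0216), -3.36 between BCAM high and differentiated (SE 0.44, edgeR QL adjusted p = 2.22e-06) and -1.80 between BCAM low and differentiated (SE 0.43, edgeR QL adjusted p = 0.00262). The call between the BCAM groups was not kept with no filter (-1.52) or in batch 2 alone (-2.05; edgeR QL adjusted p = 0.0544 and 0.225), nor on log2(TPM + 0.1) (-0.99) or log2(TPM + 1) (-0.985; limma adjusted p = 0.105 and 0.0908). A block for the replicate number also removed this call. The mesothelial marker list did not share this order of groups. Its 7 genes gave sums of 406.4 to 534 (BCAM high), 432.6 to 762.2 (BCAM low) and 54.6 to 436.3 CPM (differentiated), nearly all of it Upk1b, and Wt1 and Upk3b averaged under 1 CPM in each group.

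**Figure D2:**
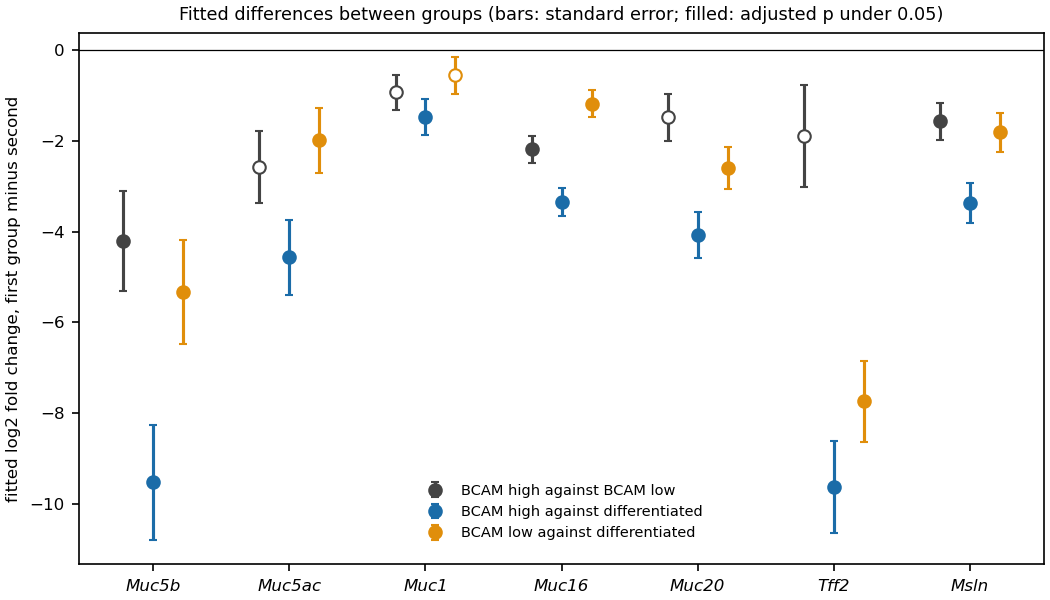
Fitted log2 fold change of each gene in the 3 comparisons, first group minus second, with bars of 1 standard error; filled points passed an adjusted p under 0.05. Every value is below 0, and the largest are those of Tff2 and Muc5b between BCAM high and differentiated, -9.63 and -9.54.

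Markers of gland, club, ciliated, suprabasal and immune cells were summed in each library. The 9 gland markers, which include Ltf and Bpifb1, gave sums of 52.6 to 482 (BCAM high), 1982 to 14010 (BCAM low) and 6201 to 63480 CPM (differentiated), and 7 of 9 had a count in at least 1 BCAM high library, and 2 of 9 were at 0 in all of them. Club markers, which include Scgb1a1, gave 26010 to 35260, 34990 to 73860 and 12630 to 415600 CPM in the same order. The 8 ciliated markers gave 45.3 to 305 (BCAM high), 327 to 606 (BCAM low) and 274.7 to 1011 CPM (differentiated), and the 6 suprabasal and hillock markers 372.1 to 899.9, 993.2 to 2243 and 392 to 1826 CPM. Of the tested ciliated markers, 5 of 8 were called lower in BCAM high than in BCAM low, as were 3 of 5 suprabasal, 2 of 8 club and 2 of 7 gland markers, against 4.59% of all tested genes. All 8 ciliated markers were called lower in BCAM high than in differentiated, and 6 of 8 in BCAM low, against 22% and 17.1% of all tested genes. Gland markers were called lower in 7 of 7 in both comparisons, and club markers in 6 of 8 (BCAM high) and 5 of 8 (BCAM low). Of 5 tested suprabasal markers, 1 was called lower in each comparison, and 2 (BCAM high) and 4 (BCAM low) were called higher than in differentiated. Lyz2, Cd68 and 5 other immune markers gave sums of 44.6 to 337 (BCAM high), 415 to 1993 (BCAM low) and 1245 to 25230 CPM (differentiated). Only 2 of these 7 had enough counts to be tested, and 2 had a count in every differentiated library. The immune sums therefore rest on few of the listed genes. The part of all these marker genes in the group differences of the mucin genes was not tested.

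Set side by side per length, the 7 genes changed order between groups. In BCAM high, Msln (244 ± 72.4 TPM) and Muc1 (170 ± 28.2) led, followed by Muc16 (10.6 ± 5.00), Tff2 (2.71 ± 2.69), Muc20 (1.15 ± 0.662), Muc5ac (0.504 ± 1.02) and Muc5b (0.469 ± 0.449; SD, n = 8). The last 4 of these did not differ from their neighbours by more than their spread. The summed TPM of Msln gives weight to its short transcripts. Msln-203 and Msln-202, of 590 and 317 bases, held 9.25% and 2.76% of its counts but averaged 141 and 102 TPM. By summed counts, BCAM high held 5957 of Msln and 9173 of Muc1, BCAM low 15550 and 15062 (batch 1: 7685 and 10805), and differentiated 29957 and 14415. The order of Msln and Muc1 therefore depended on the measure in BCAM high and in batch 1 of BCAM low. BCAM low kept Msln (529 ± 277 TPM), Muc1 (273 ± 83.9) and Muc16 (57.7 ± 26.1) in front, with Muc5b (14.4 ± 20.5), Tff2 (9.77 ± 9.24), Muc5ac (4.02 ± 7.15) and Muc20 (3.20 ± 1.64) within each other's spread. That order of BCAM low depended on the batch, since Muc5b was at 1.23 ± 1.84 TPM in batch 1 (n = 5), below Muc20 (3.23 ± 1.69) and Tff2 (3.67 ± 4.43), and at 36.4 ± 17.4 in batch 2 (n = 3), beside Muc16 (33.9 ± 10.2). In differentiated, Tff2 (1335 ± 1483 TPM) and Msln (1095 ± 518) led without differing beyond their spread, then came Muc1 (307 ± 189), Muc5b (130 ± 79.4), Muc16 (72.9 ± 34.6), Muc20 (15.1 ± 9.24) and Muc5ac (3.17 ± 2.08). In its batch 2, the mean of Muc5b (122.5 ± 145.1 TPM) was above that of Muc1 (97.6 ± 95.7) and the mean of Muc5ac (5.66 ± 0.521) above that of Muc20 (4.93 ± 4.27), each within the spread. Summed over the 7 genes, TPM ran from 342 to 579 (BCAM high), 464 to 1548 (BCAM low) and 480 to 6742 (differentiated), the lowest of the latter being replicate 7.

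The secreted products were not present in a fixed ratio. In differentiated libraries of batch 1 there were 57.5 to 104 TPM of Muc5b for each TPM of Muc5ac, and 57.2 in differentiated 8, but 7.07 and 5.93 in differentiated 6 and 7. BCAM low libraries of batch 2 had ratios of 5.72, 4.56 and 2.72. Tff2 was at 2.04 to 15.6 times the TPM of Muc5b in 7 of the 8 differentiated libraries and at 0.661 times in differentiated 7. In the batch 2 libraries of BCAM low, where Muc5b reached 25.9 to 56.5 TPM, Tff2 was at 0.419 to 0.705 times. These BCAM low libraries held 17.2 to 23.7 TPM of Tff2. Differentiated 6, at 42.9 TPM of Muc5b, held 546 TPM of Tff2, and differentiated 7, at 34.6 TPM of Muc5b, held 22.9.

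**Figure D3:**
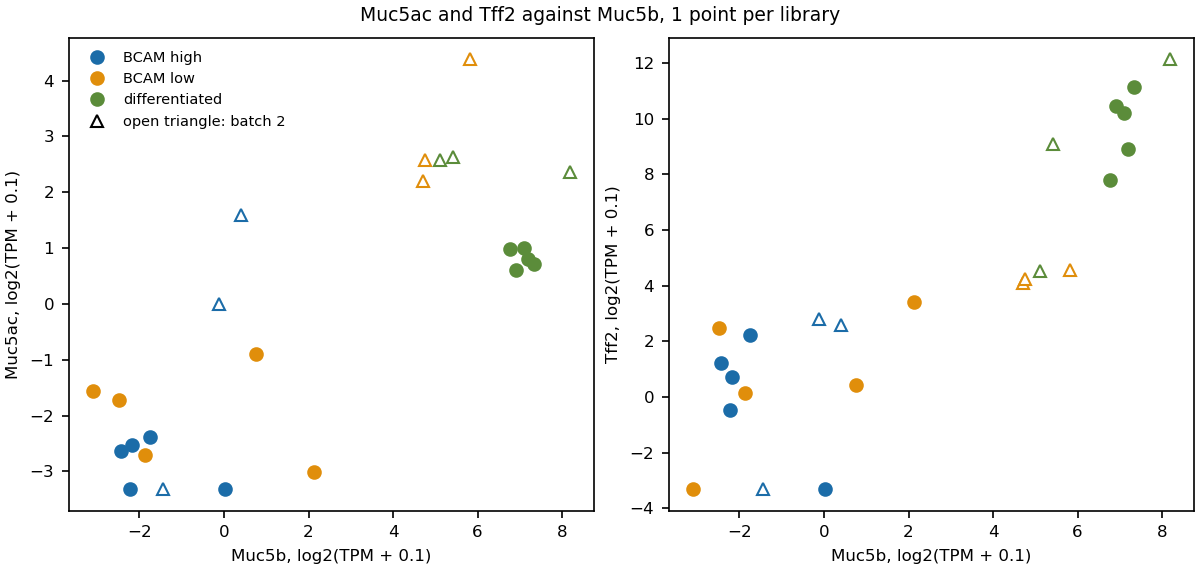
Muc5ac (left) and Tff2 (right) against Muc5b, each as log2(TPM + 0.1), with 1 point for each of the 24 libraries; open triangles are batch 2. Batch 1 differentiated libraries sit at high Muc5b with 1.42 to 1.91 TPM of Muc5ac, and the BCAM low triangles lie above them in Muc5ac, at 4.52 to 20.8 TPM.

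The membrane proteins also changed in proportion. There were 0.0708 to 0.0948 TPM of Muc16 for each TPM of Muc1 in batch 1 libraries of BCAM high and 0.0274 to 0.0344 in batch 2. BCAM low had 0.204 to 0.438 in batch 1 and 0.0995 to 0.12 in batch 2, and differentiated had 0.166 to 0.604. The TPM ratios of BCAM high lay below those of both other groups, and those of BCAM low and differentiated overlapped. The summed TPM of Muc16 gives weight to its short transcripts: Muc16-201 and Muc16-202 held 2.05% and 0.873% of its counts but averaged 14.8 and 6.48 TPM, against 25.6 TPM for Muc16-204. By counts, the Muc16 to Muc1 ratio was 0.512 to 0.813 in batch 1 and 0.254 to 0.328 in batch 2 of BCAM high, and 1.45 to 2.53 and 0.65 to 0.66 in BCAM low, so these groups did not overlap within a batch but did across batches. By summed TPM, Msln relative to Muc1 was 0.827 to 2.26 (BCAM high), 1.09 to 3.40 (BCAM low) and 2.49 to 9.93 (differentiated), where the highest values were those of replicates 7 and 8. The short Msln transcripts add to these ratios.

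Over the 24 libraries, Pearson correlations of log2 CPM between the genes ran from 0.229 for Muc5ac and Muc1 to 0.904 for Muc5b and Tff2. Muc5b and Msln correlated at 0.901, Muc20 and Msln at 0.884, and Muc1 with Muc5b at 0.476. The points share group, batch and library, so the coefficients are descriptions. The genes most alike in pattern, among tested genes of at least 10 CPM on average, were Cp (0.961), Bpifb1 (0.952) and Scgb3a1 (0.948) for Muc5b, Scgb3a1 (0.956), Surf4 (0.952) and Aldoc (0.94) for Tff2, and Itln1 (0.917), Pifo (0.907) and Cdhr4 (0.903) for Muc5ac. For Muc1 they were Wfdc2 (0.976), Ly6e (0.957) and Lypd2 (0.951), for Muc16 Crybg2 (0.932), Cldn3 (0.924) and Aldh1a1 (0.913), for Muc20 Ces1f (0.933), Pon3 (0.929) and Scgb1a1 (0.911), and for Msln Wfdc1 (0.971), Slc44a4 (0.967) and Agr2 (0.963), each over n = 24 libraries.

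The batches differed most for Muc5ac and Muc5b in BCAM low. A fit of separate means per group and batch gave batch 2 minus batch 1 log2 values in BCAM low of 5.74 for Muc5ac (SE 0.75), 4.71 for Muc5b (SE 1.03) and 1.70 for Msln (SE 0.38), which were called (edgeR QL adjusted p = 3.74e-05, 0.0054 and 0.00656). Called genes there made up 11.1% of those tested. In BCAM high, Muc5ac (4.61, SE 1.02) and Muc16 (-1.59, SE 0.47) were called (edgeR QL adjusted p = 0.00773 and 0.0457), against 8.04% of tested genes. The Muc5ac call rested on BCAM high 8, at 26.1 CPM, and without it the value was 2.96 (edgeR QL adjusted p = 0.122). The Muc16 call was not kept without any 1 of 19 libraries (-1.66 to -1.37, edgeR QL adjusted p up to 0.206). In differentiated, Muc1 (-2.51, SE 0.39), Muc20 (-2.47, SE 0.52) and Muc16 (-1.56, SE 0.47) were lower in batch 2 (edgeR QL adjusted p = 0.000123, 0.00128 and 0.0228), where 20.1% of tested genes were called. Without differentiated 6 and 7 the values were -1.48, -1.51 and -0.38, and Muc1 alone was called (edgeR QL adjusted p = 7.25e-04). In BCAM low, Muc16 was at -1.13 and not called (edgeR QL adjusted p = 0.129), and passed without differentiated 6 and 7 (edgeR QL adjusted p = 1.89e-04).

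Whether a group difference itself changed between the batches was tested by interaction terms in the same fit. Between BCAM low and differentiated, 5 of 7 were called, each with a relatively higher BCAM low level in batch 2, namely Muc5b (5.25, SE 1.47), Muc5ac (4.35, SE 1.02), Muc1 (2.86, SE 0.51), Msln (2.84, SE 0.57) and Muc20 (2.41, SE 0.74; edgeR QL adjusted p from 8.49e-04 to 0.0357), against 11.4% of tested genes. Without differentiated 6 and 7, which leaves 1 differentiated library in batch 2 that is assumed to vary like the others, Muc1 (1.83) and Msln (1.69) kept a call, and Muc5b (4.04), Muc5ac (4.67) and Muc20 (1.45) did not (edgeR QL adjusted p up to 0.465). The Muc5b call was also lost without BCAM low 8, differentiated 6 or differentiated 7 alone (4.80 to 4.95), and that of Muc20 without any of 8 libraries, BCAM low 1, 4, 5 or 8 or differentiated 1, 2, 6 or 7 (1.90 to 2.41). Between BCAM high and differentiated, Muc1 (2.14, SE 0.50) and Msln (1.89, SE 0.56) were called (edgeR QL adjusted p = 0.00986 and 0.0418), against 8.69%. The Msln value fell to 0.74 and lost its call without differentiated 6 and 7 (edgeR QL adjusted p = 0.206), as it did on leaving out any 1 of 18 libraries (1.49 to 1.99). In that setting Muc1 (1.11) kept its call and Muc16 (-1.21) gained one (edgeR QL adjusted p = 0.0362 and 0.0405). None of the 7 was called between BCAM high and BCAM low, where 1.06% of tested genes were; Muc5b came nearest at an unadjusted p of 0.0509 (-3.44, edgeR QL adjusted p = 0.43). Msln (-0.95) was called there without differentiated 6 and 7 (edgeR QL adjusted p = 0.0151).

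**Figure D4:**
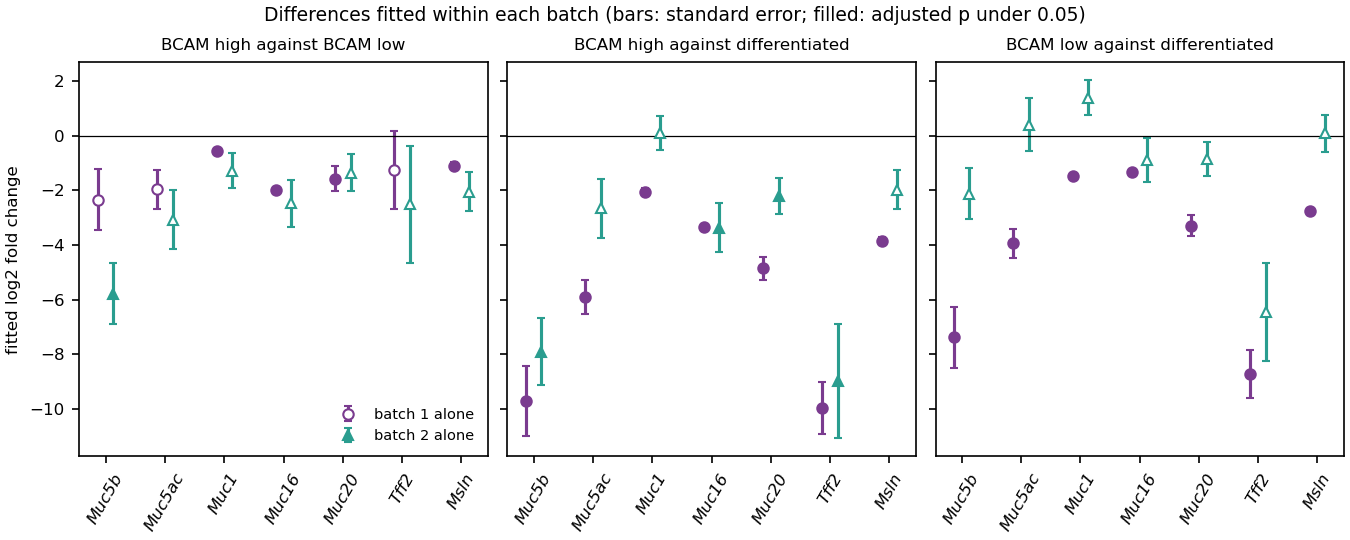
Fitted log2 fold changes within batch 1 (5 libraries a group) and batch 2 (3 libraries a group) fitted alone, with bars of 1 standard error and filled points for an adjusted p under 0.05. In batch 1 every value lies below 0, and in batch 2 Muc5ac, Muc1 and Msln lie at or above 0 between BCAM low and differentiated.

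Each batch was also fitted alone. The shares of all tested genes called in these fits are not given, so the counts below only describe the 7 genes. Over all genes, batch 2 alone called 543 between the BCAM groups and 2221 between BCAM low and differentiated. In batch 1, all 7 genes were called lower in BCAM high than in differentiated (-9.98 for Tff2 to -2.04 for Muc1) and all 7 lower in BCAM low than in differentiated (-8.73 for Tff2 to -1.34 for Muc16). Between the BCAM groups, batch 1 called Muc16 (-1.998, edgeR QL adjusted p = 6.91e-12), Msln (-1.10), Muc20 (-1.57) and Muc1 (-0.56) and left Muc5b uncalled (-2.35, edgeR QL adjusted p = 0.261). Batch 2 called only Muc5b between the BCAM groups (-5.79, edgeR QL adjusted p = 0.0447). The same batch called Muc5b (-7.90), Tff2 (-8.98), Muc16 (-3.36) and Muc20 (-2.20) between BCAM high and differentiated, and none of the 7 between BCAM low and differentiated, where Tff2 was at -6.46 (edgeR QL adjusted p = 0.0577). In that last comparison Muc1 (1.39), Muc5ac (0.41) and Msln (0.08) changed sign, and so did Muc1 between BCAM high and differentiated (0.10). Batch 2 has 3 libraries a group, and its differentiated group holds replicates 6 and 7, with the club and thyroid marker levels given above; whether those levels bear on the sign changes was not tested.

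Estimated counts also divide each gene among its transcripts. Muc1-201 took 99.1% to 99.7% of the Muc1 counts in the group means and Muc16-204, the 25437-base transcript, 95.6% to 97.9% of the Muc16 counts. Msln counts were spread over 9 transcripts. Of these, Msln-203, annotated as a retained intron, took 20.2% ± 6.61 (BCAM high), 13.9% ± 6.06 (BCAM low) and 7.80% ± 5.02 (differentiated) of the counts (SD, n = 8). The ranges overlapped, at 7.53% to 27.6%, 6.12% to 20.9% and 3.89% to 17.2%, and the order of the groups differed between batches, with means of 24.1%, 18.0% and 5.44% in batch 1 and 13.7%, 7.21% and 11.7% in batch 2. Muc5ac counts were split among 3 coding transcripts in shares that varied widely between libraries, with Muc5ac-202 at 22.9% to 99.98% in differentiated.

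Genes that make, fold and release mucins were examined by lists of related genes. Other mucins and relatives were scarce: of 11 further mucin genes found, 1 was tested, the sialomucin Cd164, and Muc2 averaged 1.85 (BCAM high), 2.74 (BCAM low) and 1.25 CPM (differentiated). The other trefoil factors (2 genes) and the mesothelin relatives (3 genes) had too few counts to be tested. Cd164 was called lower in both BCAM groups than in differentiated (-0.42 and -0.35), and its sign turned on the TPM scale (0.34 and 0.02). On that scale the median of all genes moved by 0.73 and 0.46 in these comparisons.

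Of 6 tested regulators of goblet and secretory cells, 2 were called lower in BCAM high than in BCAM low, against 4.59% of all tested genes. They were Xbp1, a transcription factor of the secretory pathway (-0.81, SE 0.19, edgeR QL adjusted p = 0.0105), and the forkhead factor Foxa3. Foxa3 had 2 summed counts in BCAM high and 107 in BCAM low, a 55.3-fold ratio (95% exact conditional binomial interval 14.9 to 462, which covers counting error only and not the spread between libraries). Against differentiated, 4 of 6 were called lower in BCAM high and 3 of 6 in BCAM low, against 22% and 17.1% of all tested genes. Creb3l1, a regulator of secretory capacity, was at -3.79 and -2.96, and Spdef, the goblet cell factor, at -2.42 and -1.36 (edgeR QL adjusted p up to 0.0129). In batch 2 alone Creb3l1 was at -1.70 and -1.07 and not called (edgeR QL adjusted p = 0.126 and 0.41). Foxa1 was the 1 regulator called higher in both, at 0.99 and 1.27 (edgeR QL adjusted p up to 1.55e-04). Spdef averaged 7.05 (BCAM high), 19.2 (BCAM low) and 37.2 CPM (differentiated), and in batch 2 alone it was not lower in BCAM low than in differentiated (0.12, edgeR QL adjusted p = 0.898).

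Among genes for mucin folding and other mucus proteins, 3 of 6 tested were called lower in BCAM high than in BCAM low, and 6 of 6 and 4 of 6 lower than in differentiated in BCAM high and BCAM low, against 4.59%, 22% and 17.1% of all tested genes. Agr2, the disulfide isomerase needed to fold gel-forming mucins, was at 28.4 ± 17.7 (BCAM high), 167 ± 145 (BCAM low) and 374.5 ± 180 CPM (differentiated; SD, n = 8), with log2 fold changes of -2.39, -4.07 and -1.67 (edgeR QL adjusted p = 0.00261, 8.35e-07 and 0.00758). Its relative Agr3 had 0 counts in BCAM high, which puts BCAM low at least 24.8-fold and differentiated at least 104-fold higher (against 3 counts over the group). These bounds pool the libraries of a group and do not cover the spread between them. Agr3 averaged 3.47 ± 5.32 CPM in BCAM low (SD, n = 8) and was lower in BCAM high in 6 of 8 same-numbered comparisons. In batch 1 alone it was not called between the BCAM groups (-4.73, edgeR QL adjusted p = 0.0574). Itln1, a mucus lectin, was at 0.376 ± 0.536, 22.9 ± 32.4 and 36.7 ± 36.4 CPM (SD, n = 8), and was called lower in BCAM high than in either other group (-5.05 and -7.30). Between the BCAM groups it was not called in batch 1 alone (-2.39, edgeR QL adjusted p = 0.132) and was called in batch 2 alone (-6.06, edgeR QL adjusted p = 0.00794). The IgG Fc binding mucus protein Fcgbp was lower in BCAM low than in differentiated (-2.21, edgeR QL adjusted p = 0.0111) but at 0.97 in batch 2 alone.

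Of 17 tested O-glycosylation enzymes, 4 were called lower in BCAM high than in BCAM low and none higher, against 4.59% of all tested genes called lower. Those with the largest changes were Galnt6 (-3.09), which starts O-linked chains, the sialyltransferase St3gal4 (-1.31) and Gcnt1 (-1.27), which branches the sugar core. The Galnt6 call was kept in neither batch alone (-2.42 and -3.63, edgeR QL adjusted p = 0.204 and 0.0976) and was also lost with no filter on low counts and with no batch term. On log2(TPM + 0.1) and log2(TPM + 1) it was at -1.66 and -0.77 and not called (limma adjusted p = 0.0974 and 0.131). Among the listed genes named for this comparison of the BCAM groups, Gcnt1 (-1.36 and -1.18) was the 1 called in each batch alone, and Foxa3 was tested alone in batch 2 only. In BCAM high against differentiated, 9 of 17 were called lower and 1 higher, with Galnt6 (-5.30), the fucosyltransferase Fut2 (-4.66) and Galnt3 (-2.07) furthest down and Galnt18 up (1.90). BCAM low against differentiated had 5 lower and 1 higher, again with Fut2 (-2.79), Galnt6 (-2.21), Galnt3 (-1.09) and Galnt18 (1.63) at the ends. The background shares called lower were 22% and 17.1% of all tested genes.

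Of 11 tested genes of granule exocytosis, 1 was called between the BCAM groups (Unc13b, -0.78), 4 between BCAM high and differentiated and 5 between BCAM low and differentiated, against 7.02%, 41.3% and 33.5% of all tested genes. Unc13d, a priming factor, was higher in both BCAM groups than in differentiated (1.09 and 0.93), and Snap23 (-0.61 and -0.62) and Stxbp2 (-0.33 and -0.50) were lower, with Snap23 at 0.28 and Stxbp2 at 0.23 on the TPM scale in BCAM high. The median of all genes moved by 0.73 on that scale between BCAM high and differentiated. Among 5 partners of membrane mucins, Egfr was called in all comparisons, higher in BCAM high than in BCAM low (0.54) and higher in both than in differentiated (1.78 and 1.25). Lgals3, a galectin that binds Muc1 sugars, was lower in BCAM high than in BCAM low (-0.81; without BCAM low 6, -0.70 and an edgeR QL adjusted p of 0.0515) and higher in BCAM low than in differentiated (0.65). Met was higher in BCAM high (0.60) and BCAM low (0.42) than in differentiated, the opposite sign to Muc20. In batch 1 alone Met was at 0.16 and 0.29 and not called (edgeR QL adjusted p = 0.36 and 0.0818), and in batch 2, which holds differentiated 6 and 7, at 1.31 and 0.68. Fitted alone, batch 2 also left uncalled, between BCAM low and differentiated, Galnt6 (-1.59), Galnt3 (-0.51), Unc13d (0.55), Snap23 (-0.51), Itln1 (-0.11) and Agr3 (-0.85), and batch 1 left Lgals3 (0.24) uncalled there. Stxbp2 was uncalled in BCAM high against differentiated in each batch alone (-0.27 and -0.43). Erbb2, at 85.7 (BCAM high) and 119.6 CPM (BCAM low), was lower in BCAM high (-0.48, 8 of 8) with no overlap of the libraries, and lost that call without any of BCAM high 1, 2 or 3 or BCAM low 6, 7 or 8 (-0.48 to -0.43, edgeR QL adjusted p up to 0.0658).

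**Figure D5:**
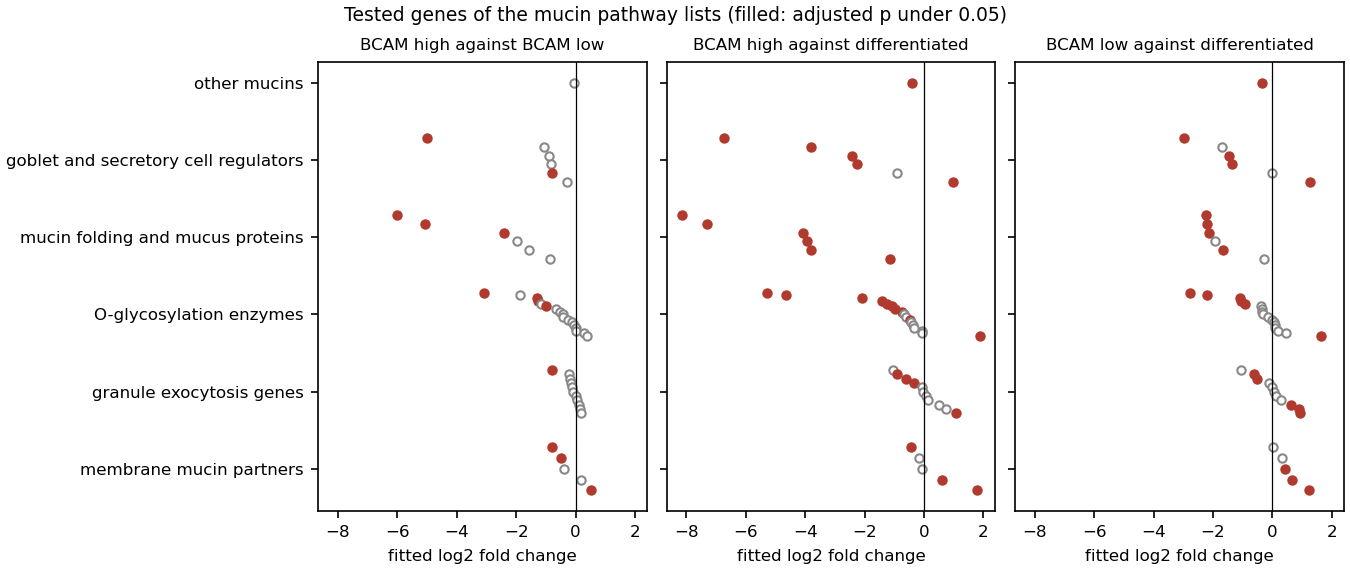
Fitted log2 fold change of each tested gene in 6 lists of mucin-related genes, 1 panel per comparison; filled points passed an adjusted p under 0.05. The folding and mucus list lies below 0 in all panels, and the exocytosis list lies on both sides of 0.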

How the data were processed

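RNA of 24 sorted samples (8 per group, 1000 cells each) was read as 38 bp paired ends by SmartSeq2, per the labels' protocols. The deposited tables give, per the file headers, a transcript's length, its estimated count and its TPM value, which the file headers name as kallisto does. The submitters' processing notes name kallisto 46.1, Picard and GRCm39 without a role. No pooling of replicates is stated.

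Of 117497 transcripts per table, 116374 matched GENCODE M21 (GRCm38) and were summed to 35855 genes; the 1123 others held 0.317% to 0.594% of a library's counts. Names came from M21, and a symbol naming several genes was left out. Estimated counts were rounded, filtered by edgeR's filterByExpr (12211 genes kept), scaled by TMM (factors 0.713 to 1.24) and tested with edgeR 4.0.16 in R 4.3.3 (robust quasi-likelihood fit, group plus batch, Benjamini-Hochberg adjusted p under 0.05 over all genes tested). Standard errors were derived from the F statistic. Batch differences and interactions used a mean per group and batch. The fit was tested on simulated data. Alternatives were DESeq2 1.42.0, limma 3.58.1 on log2(TPM + 0.1) and log2(TPM + 1), other filters, scalings and designs, each batch alone and each library left out.

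In each mucin-related list, the 3 called genes with the largest change in each direction were named, and for each gene the 3 most correlated genes of at least 10 mean CPM. Other genes named were chosen after their values were seen. The genes and lists were chosen with earlier results of these data known. Muc4 is not reported here.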

Additional observations from a re-analysis of the deposited data

Results flagged for a closer look

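Muc1 in BCAM low 8, at 836 CPM, stood apart from the other libraries of its group. The gap to the next library took 0.575 of the group's range on the log2 CPM scale, above Dixon's limit at the 95% level for 8 samples. This was the 1 such library among 21 groups examined, and chance flags about 1 in 20. Of the group differences, 7 changed between the batches by an interaction term (edgeR quasi-likelihood test). Between BCAM low and differentiated, the log2 changes from batch 1 to batch 2 were 5.25 for Muc5b, 4.35 for Muc5ac, 2.86 for Muc1, 2.84 for Msln and 2.41 for Muc20. Between BCAM high and differentiated they were 2.14 for Muc1 and 1.89 for Msln. In batch 2 of the differentiated group, replicate 8 held 80870 CPM of club and 49520 CPM of thyroid markers, between batch 1 and the rest of batch 2. Replicates 6 and 7 lay furthest from batch 1 in these marker levels. Without both, Muc1 and Msln kept the call between BCAM low and differentiated, and Muc1 kept it between BCAM high and differentiated.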

How the results depend on the processing

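The number of the 7 genes called between BCAM high and BCAM low (3) was 5 with DESeq2 or with only the groups compared, 1 with no filter, with log2(TPM + 0.1), with log2(TPM + 1) and in batch 2 alone, 6 without differentiated 6 and 7 (chosen after seeing the data) and 2 to 5 with 1 library left out. All genes called there (857) numbered 545 without a batch term, 543 in batch 2 alone, 1297 with only the groups compared and 685 to 978 with 1 library left out. For the setting without differentiated 6 and 7 that number is not given. Against differentiated, BCAM high gave 5044 genes, 7709 and 7741 on the TPM scales and 4768 to 5225 with 1 library left out, and 7 of the 7 genes, 6 on the TPM scales, 4 in batch 2 alone and 7 with any 1 library left out. BCAM low gave 4086 genes, 2221 in batch 2 alone and 3761 to 4198 with 1 library left out, and 6 of the 7 genes, 0 in batch 2 alone and 5 to 6 with 1 left out. Calls between batches numbered 2 within BCAM high (1 with no filter, 1 to 3 with 1 library left out), 3 within BCAM low (3 to 4) and 3 within differentiated (1 without differentiated 6 and 7, 2 to 4). Interaction calls numbered 0 for BCAM high against BCAM low (1 without differentiated 6 and 7, 0 to 1), 2 for BCAM high against differentiated (1 to 4) and 5 for BCAM low against differentiated (2 without differentiated 6 and 7, 3 to 6).

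Signs turned in batch 2 alone for Muc1 (0.10) and Erbb2 (0.13) between BCAM high and differentiated and for Muc1 (1.39), Muc5ac (0.41), Msln (0.083), Cd164 (0.083), Spdef (0.12), Fcgbp (0.97) and Marcks (-0.026) between BCAM low and differentiated. With log2(TPM + 0.1) and log2(TPM + 1) they turned for Cd164 (0.34 and 0.34), Snap23 (0.28 and 0.27), Stxbp2 (0.23 and 0.23) and Erbb2 (0.39 and 0.37) between BCAM high and differentiated, and for Muc1 (0.27 and 0.26) and Cd164 (0.0222 and 0.0224) between BCAM low and differentiated. Without differentiated 6 and 7 they turned for the batch difference within differentiated of Muc5b (0.66) and Msln (0.011) and for the interactions of Tff2 (-0.32, BCAM high against differentiated) and Muc16 (-0.74, BCAM low against differentiated). With 1 library left out, batch differences ran from -0.30 to 0.56 for Muc20 in BCAM high, -0.58 to 0.25 for Muc20 in BCAM low and -1.74 to 0.76 for Tff2 in differentiated, and interactions from -0.23 to 0.72 for Muc20 between the BCAM groups, and for Muc16 from -0.48 to 1.42 (BCAM high against differentiated) and -0.017 to 1.89 (BCAM low against differentiated). On log2(TPM + 0.1) the median of all genes moved by 0.73 between BCAM high and differentiated and by 0.46 between BCAM low and differentiated. The cause of the sign changes was not tested.

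Same-numbered libraries deviated together, with correlations of 0.0315 to 0.176 from group and batch means (not all over 0.1). From group means alone, the correlations were 0.121 to 0.29 between BCAM high and BCAM low. Against differentiated they were 0.0382 to 0.242. A library's own number correlated best, among the libraries of its batch, in 46 of 48 cases. That is nearly all cases, where random matching would give only a minority. What same-numbered libraries share was not tested, and they cannot be taken as unrelated. The main fit does not pair samples by number, so its p-values treat same-numbered libraries as unrelated. A block for the number was fitted as an alternative. With the replicate block, 1 of the 7 genes was called between BCAM high and BCAM low, with Muc5b at -4.38 and Msln at -1.58 no longer called (edgeR quasi-likelihood adjusted p = 0.0716 and 0.0606). Low counts limit Tff2 and Muc5ac in BCAM high, where some libraries hold 0 counts.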
